A study of Mus musculus with 14 samples.

Results

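Mucin genes were examined in 2 subsets of the luminal cells of the mouse mammary gland. The 7 genes of the list were Muc1, Muc4, Muc13, Muc15, Muc16, Muc20 and Muc5b. They were chosen with the difference between these same subsets already known, so that the difference is described here and is not tested. Of the 7 genes, 6 had a probe set of their own among the 22180 genes measured, and 5 of these 6 lay above background in at least 1 subset. Muc20 had no probe set that carries its symbol alone and is not analysed here. Its annotated locus overlaps that of Muc4, and the 2 genes share a further probe set that was not used.

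Mammary cells of adult virgin females, 4 to 6 months old and of the strains BALB/cByJ JAX and C57Bl/6, were sorted by their surface CD24, found on epithelial cells, and by the adhesion molecule ICAM-1, with CD45, of blood cells, and CD31, of endothelium, stained as well. Basal cells also carry both CD24 and ICAM-1 and had a gate of their own. The luminal cells with ICAM-1 (Lu-pos) hold clonogenic progenitors, and those without it (Lu-neg) are mostly hormone-sensing. The mice of either subset carried no transgene and were not treated. Each of 7 pools of at least 12 glands, taken from at least 3 mice, gave 1 Lu-pos and 1 Lu-neg sample, which were taken as a pair, and each sample was hybridised to 1 Affymetrix whole-transcript array. Which strain made up which pool is not stated. Values are log2 intensities, so that a difference of 1 is a doubling, and they allow a gene to be compared between arrays but not with another gene. The background level, 3.73, is the 95th percentile of the mean levels of 1390 odorant and vomeronasal receptor genes.

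Mucins are proteins with long stretches of serine, threonine and proline that carry dense chains of O-linked sugar. Membrane mucins, such as those encoded by Muc1, Muc4, Muc13, Muc15, Muc16 and Muc20, are anchored in the apical membrane of epithelial cells, where they hydrate and shield the surface, and they can be shed. Gel-forming mucins, such as that of Muc5b, are secreted and make up mucus. In the mammary gland, MUC1 and MUC15 are known as components of the membrane that wraps the fat globules of milk, and MUC1 and MUC16 (CA125) are measured as tumor markers in patients.

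The sorted cells carried the markers of luminal cells. All 7 of 7 pan-luminal markers, Krt8, Krt18 and Epcam among them, lay above background in both populations. The summed level of 7 progenitor markers, Elf5 and Kit among them, lay between 11.4 and 11.9 on the log2 scale in Lu-pos and between 8.59 and 10.6 in Lu-neg arrays. That of 4 hormone-sensing markers, Esr1 and Pgr among them, lay between 7.98 and 9.80 in Lu-pos and between 10.3 and 10.7 in Lu-neg arrays. Summed basal markers (9 of 9 above background) spanned 8.74 to 10.2 in Lu-pos and 7.59 to 10.96 in Lu-neg arrays, and summed endothelial markers (4 of 8) spanned 6.57 to 9.05 in Lu-pos and 7.38 to 9.05 in Lu-neg arrays. Of 9 immune markers 2 lay above background, and Ptprc, which encodes CD45, was not among them. Summed fibroblast and adipocyte markers (6 of 8) spanned 9.25 to 10.97 in Lu-pos and 8.55 to 11.3 in Lu-neg arrays. In 7 of 7 pairs the Lu-pos array exceeded its partner for the progenitor list and fell short of it for the hormone-sensing list. The summed level in Lu-pos was the higher of the pair in 5 of 7 pairs for basal, 6 for immune, 2 for endothelial and 2 for fibroblast and adipocyte markers. Of the markers of these other cells, 2 were called, Vwf and Dcn, both lower in Lu-pos. The part of other cell types in the mucin levels was not tested.

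The 5 mucin genes above background each kept 1 direction in 7 of 7 pairs. Muc1, Muc15 and Muc4 were higher in Lu-pos cells, by 2.95-, 7.36- and 6.77-fold. Muc13 and Muc16 were lower in Lu-pos cells, by 4.10- and 3.97-fold. Muc5b stayed under background. The Lu-pos and Lu-neg ranges did not overlap for 3 of the 6 measured mucins, Muc1, Muc15 and Muc4, as for 3.01% of all genes. In the paired limma fit over all genes at an adjusted p under 0.05, 3 of the 6 measured mucins were called higher, where 4.35% of all genes were, and 2 were called lower, where 7.19% were. Since the genes were chosen from this contrast, nothing is read from these counts. The arrays hold the RNA of whole populations, so that fewer cells with a transcript and less of it in each cell cannot be told apart.

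**Figure D1:**
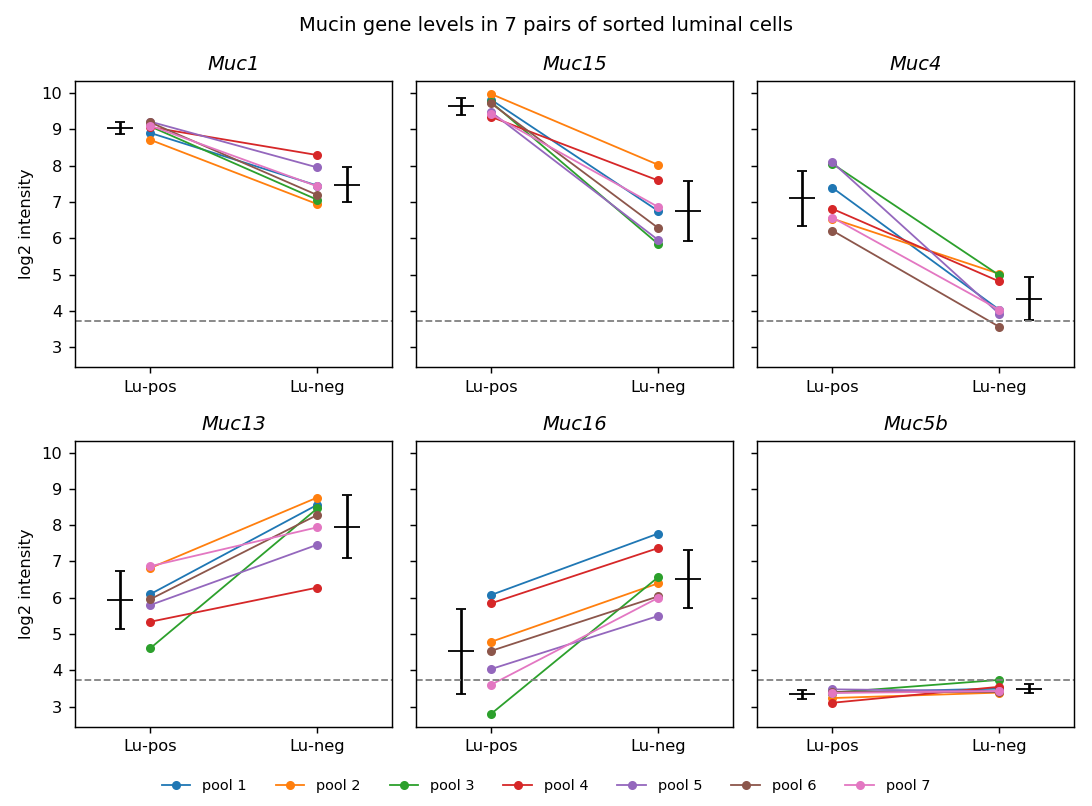
Log2 intensity (y axis) of the 6 measured mucin genes in Lu-pos and Lu-neg cells (x axis), with a line for each of the 7 pools, black marks for the mean and SD of 7 arrays, and a dashed line at the background level of 3.73. The lines of Muc1, Muc15 and Muc4 all run down toward Lu-neg and those of Muc13 and Muc16 all run up, while Muc5b stays at or under the dashed line apart from the Lu-neg array of pool 3, at 3.74.

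Muc1 encodes the mucin found on nearly all glandular epithelia, whose short cytoplasmic tail takes part in signaling. Its lowest, median and highest log2 levels were 8.71, 9.08 and 9.21 in Lu-pos arrays and 6.94, 7.43 and 8.29 in Lu-neg arrays. The populations did not overlap, and the lowest Lu-pos array exceeded the highest Lu-neg array, that of pool 4, by 0.42. The means were 9.04 ± 0.18 in Lu-pos and 7.47 ± 0.49 in Lu-neg cells (SD, n = 7 each), a difference of 1.56 with a standard error over pairs of 0.17. The difference within a pair ran between 0.77 in pool 4 and 2.02 in pool 3. Muc1 thus had a clear signal in both populations, and its level varied more among the Lu-neg arrays.

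Muc15 encodes a small membrane mucin first purified from the fat globule membrane of bovine milk. Its lowest, median and highest log2 levels were 9.34, 9.71 and 9.97 in Lu-pos arrays and 5.84, 6.75 and 8.02 in Lu-neg arrays. No Lu-neg array reached the Lu-pos range, from which the nearest, that of pool 2, was 1.32 away. The means were 9.64 ± 0.23 in Lu-pos and 6.76 ± 0.82 in Lu-neg cells (SD, n = 7 each), a difference of 2.88 with a standard error over pairs of 0.31. By the size of this difference Muc15 was number 4 of the 22180 genes, counted from the largest rise. Pools 2 and 4 had the highest Lu-neg levels, 8.02 and 7.59, and the smallest differences, 1.95 and 1.75, and pool 3 had the lowest Lu-neg level and the largest difference, 3.90.

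Muc4 encodes a large membrane mucin, known in the rat as a sialomucin complex of mammary tumor cells that binds the receptor ErbB2. Its lowest, median and highest log2 levels were 6.21, 6.81 and 8.09 in Lu-pos arrays and 3.56, 4.03 and 5.02 in Lu-neg arrays. The populations were 1.19 apart at their closest, and the Lu-neg array of pool 6 lay under background. The means were 7.09 ± 0.76 in Lu-pos and 4.34 ± 0.59 in Lu-neg cells (SD, n = 7 each), a difference of 2.76 with a standard error over pairs of 0.33. The Lu-neg mean also lay under the 99th percentile of the receptor genes, 5.09. Muc4 was number 9 of all genes by the size of its rise. The difference was smallest in pool 2, at 1.52, and largest in pool 5, at 4.17, where the Lu-pos array was the highest of all for this gene. Whether its probe set lies in the stretch shared with the Muc20 locus is not stated, and a part of Muc20 in the signal was not tested.

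Muc13 encodes a membrane mucin of the gut surface, first described in the mouse as an antigen of blood progenitor cells. Its lowest, median and highest log2 levels were 4.61, 5.96 and 6.87 in Lu-pos arrays and 6.28, 8.28 and 8.76 in Lu-neg arrays. The ranges overlapped, since the Lu-neg array of pool 4, at 6.28, lay under the Lu-pos arrays of pools 2 and 7, at 6.82 and 6.87. Within each pair the Lu-pos array was the lower, with a difference of -0.94 in pool 4 and of -3.85 in pool 3. The means were 5.93 ± 0.80 in Lu-pos and 7.96 ± 0.86 in Lu-neg cells (SD, n = 7 each), a difference of -2.03 with a standard error over pairs of 0.37. Muc13 was number 13 of all genes counted from the largest fall, and it stayed above background on all 7 Lu-pos arrays.

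Muc16 encodes the very large membrane mucin from which the CA125 antigen is shed. Its lowest, median and highest log2 levels were 2.81, 4.54 and 6.08 in Lu-pos arrays and 5.50, 6.40 and 7.77 in Lu-neg arrays. The ranges overlapped, with the Lu-pos arrays of pools 1 and 4, at 6.08 and 5.85, above the Lu-neg array of pool 5, at 5.50. The means were 4.53 ± 1.17 in Lu-pos and 6.52 ± 0.80 in Lu-neg cells (SD, n = 7 each), a difference of -1.99 with a standard error over pairs of 0.32. As for Muc4 in Lu-neg cells, the Lu-pos mean lay under the 99th percentile of the receptor genes, 5.09. In 6 pools the difference ran between -2.39 and -1.46, and in pool 3 it was -3.76. The Lu-pos arrays of pools 3 and 7, at 2.81 and 3.61, lay under background, so that for these 2 pools the difference has only a bound. Muc16 was number 19 of all genes counted from the largest fall.

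Muc5b encodes a gel-forming mucin of the airways and salivary glands. Its levels lay between 3.11 and 3.48 in Lu-pos arrays and between 3.39 and 3.74 in Lu-neg arrays, and 1 of the 14 values, in the Lu-neg array of pool 3, passed the background level. The difference was -0.15 with a standard error over pairs of 0.07, lower in Lu-pos in 5 pairs, higher in 1 and equal in 1. No level of Muc5b can be read from these arrays beyond the background.

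**Figure D2:**
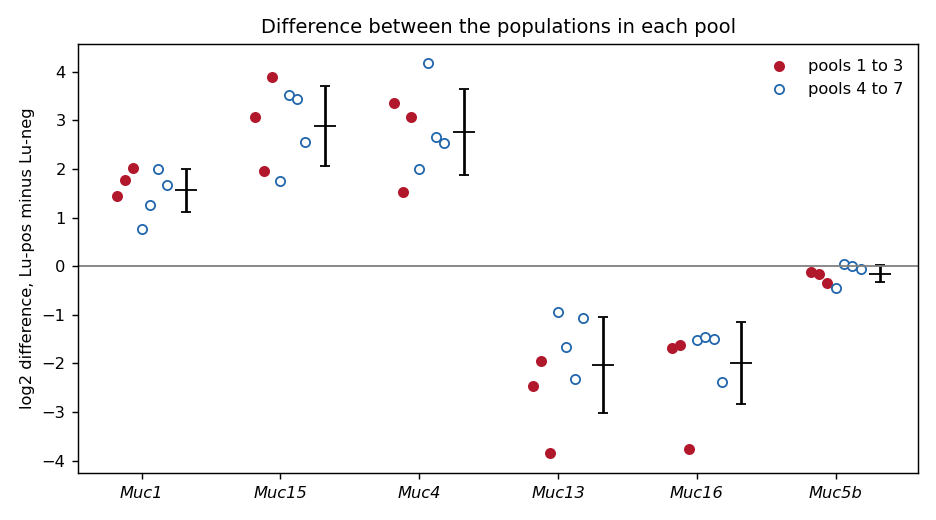
Log2 difference, Lu-pos minus Lu-neg (y axis), for each measured mucin gene (x axis) in each pool, with filled points for pools 1 to 3, open points for pools 4 to 7, and black marks for the mean and SD of the 7 pairs. The points of Muc1, Muc15 and Muc4 lie between 0.77 and 4.17, those of Muc13 and Muc16 between -3.85 and -0.94, and pool 3 gives the lowest point of both Muc13 and Muc16.

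The upstream sequences of the genes that differed are shown so that members higher and lower in Lu-pos cells can be set side by side. RefSeq's table of promoters (GRCm38.p6) matched 5 of the 7 genes by symbol, Muc1, Muc4, Muc13, Muc16 and Muc20, and not Muc15 and Muc5b. The following are the 250 bases before the annotated start of Muc1 and Muc4, higher in Lu-pos, and of Muc13 (the first of 2 annotated starts) and Muc16, lower in Lu-pos, 5′ to 3′, with capitals for matches of the motifs searched.
Muc1, chr3:89228806-89229055, plus strand: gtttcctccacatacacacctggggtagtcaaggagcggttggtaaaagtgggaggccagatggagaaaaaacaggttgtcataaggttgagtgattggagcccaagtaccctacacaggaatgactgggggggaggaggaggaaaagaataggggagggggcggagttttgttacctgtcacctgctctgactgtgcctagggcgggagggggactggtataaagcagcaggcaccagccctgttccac
Muc4, chr16:32735636-32735885, plus strand: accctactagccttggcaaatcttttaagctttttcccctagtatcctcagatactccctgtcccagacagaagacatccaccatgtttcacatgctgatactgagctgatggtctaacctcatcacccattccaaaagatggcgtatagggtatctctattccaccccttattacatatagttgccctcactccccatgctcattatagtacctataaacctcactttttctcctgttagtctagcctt
Muc13, chr16:33793787-33794036, plus strand: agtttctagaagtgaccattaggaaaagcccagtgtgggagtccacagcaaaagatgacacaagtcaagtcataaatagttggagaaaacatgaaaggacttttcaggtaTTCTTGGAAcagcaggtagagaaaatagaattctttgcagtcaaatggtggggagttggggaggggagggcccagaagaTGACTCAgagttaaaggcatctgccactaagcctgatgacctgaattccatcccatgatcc
Muc16, chr9:18674604-18674853, minus strand: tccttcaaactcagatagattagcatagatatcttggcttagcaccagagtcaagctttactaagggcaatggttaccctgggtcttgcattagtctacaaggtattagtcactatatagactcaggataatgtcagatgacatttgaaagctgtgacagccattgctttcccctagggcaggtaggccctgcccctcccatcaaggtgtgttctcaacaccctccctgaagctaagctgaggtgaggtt

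On both strands of these windows 4 motifs were searched, TTCNNNGAA (the site of STAT factors), CCGGAA (the core of many ETS sites), TGANTCA (the AP-1 site) and the full palindromic estrogen response element. Among all 32851 windows of the table, 7.02% held the first motif, 12% the ETS core, 6.75% the AP-1 site and 0.0639% the estrogen response element. The Muc13 window held TTCTTGGAA at 140 to 132 bases before the start and TGACTCA at 61 to 55 bases before it, which do not overlap. The window of the other Muc13 start held an AP-1 match as well, TGAGTCA. The windows of Muc1, Muc4, Muc16 and Muc20 held no match of the 4 motifs, which says only that these letters are not in these 250 bases. A match is a string of letters and not a site of binding.

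The genes next to the measured mucins in the RefSeq annotation were mostly not called. Of 11 such neighbors, 1 was called higher in Lu-pos, 1 was called lower, and 9 were not called by the paired limma fit. In that fit 11.5% of all genes were called in either direction, and nothing is read from the count of neighbors. The neighbor called higher was Trim46, beside Muc1, at 5.06 ± 0.34 in Lu-pos and 4.22 ± 0.24 in Lu-neg cells (log2 fold change 0.84 ± 0.12 SE, adjusted p = 0.0022). Trim46 was dim, with both means under the 99th percentile of the receptor genes, 5.09. The neighbor called lower was the integrin gene Itgb5, beside Muc13, at 6.74 ± 0.46 in Lu-pos and 7.38 ± 0.33 in Lu-neg cells (log2 fold change -0.64 ± 0.16 SE, adjusted p = 0.0291), and it missed the threshold (adjusted p 0.0571 to 0.0773) on omission of any single one of pairs 2, 3, 4, 6 or 7, and also in the unpaired fit (0.0538) and with housekeeping scaling (0.0556). Ano3, whose annotated locus overlaps that of Muc15, lay under background at 2.73 in Lu-pos and 2.68 in Lu-neg cells. Muc5ac, the gel-forming mucin gene beside Muc5b, lay under background too, at 2.79 in Lu-pos and 2.74 in Lu-neg cells. So did A26c3, beside Muc15, and Mbd3l1 and Olfr24, beside Muc16, at 2.28, 2.41 and 1.99 in Lu-pos and at 2.38, 2.30 and 2.01 in Lu-neg cells. For neighbors under background a missing call says little.

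The mucins also varied from pool to pool, in means that the choice of genes did not use. The test below sets these means against the spread of the pair differences, and it was chosen after values were seen. Over the mean of the 2 arrays of a pool, Muc16 spanned 2.24 log2 units, with the highest mean in pool 1 and the lowest in pool 3, and Muc13 spanned 1.98, with the highest mean in pool 2 and the lowest in pool 4. Muc4 spanned 1.63, Muc15 1.29 and Muc1 0.85. A limma F test of the 7 pools in the paired fit called 0.298% of all genes and 0 of the 6 measured mucins at an adjusted p under 0.05, with 1 of the 6, Muc16, at an unadjusted p under 0.05. For Muc16 the adjusted p = 0.187, and without pool 3, whose Lu-pos array lay under background at 2.81, it was 0.0249. On omission of any other single pool it lay between 0.225 and 0.386. The other measured mucins had adjusted p-values between 0.467 and 0.904. That the test missed its threshold does not show that the pools were alike, and strain and pool cannot be told apart here.

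Pools 1 to 3 and pools 4 to 7 were also set side by side. The labels do not give this split, which was taken from earlier results of these data and was not tested here. The mean difference, Lu-pos minus Lu-neg, was 1.75 in pools 1 to 3 and 1.43 in pools 4 to 7 for Muc1, 2.97 and 2.81 for Muc15, and 2.65 and 2.84 for Muc4. For Muc13 it was -2.75 in pools 1 to 3 and -1.50 in pools 4 to 7, and for Muc16 it was -2.35 and -1.72. All of these kept their sign in both sets, and the gap between the sets was widest for Muc13, whose Lu-neg mean was 8.59 in pools 1 to 3 and 7.49 in pools 4 to 7. For Muc16 the difference was -1.69 in pool 1, -1.61 in pool 2 and -3.76 in pool 3. The Lu-pos array of pool 3, at 2.81 for Muc16, lay under background.

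Correlations among the mucins depended on whether the difference between populations was kept. Over the 14 arrays, which share the difference between the populations, Pearson's r was 0.888 for Muc4 with Muc15 and 0.853 for Muc1 with Muc15. After each population's mean was taken off, r was 0.262 for Muc4 with Muc15 and -0.01 for Muc1 with Muc15. Muc13 and Muc16 had an r of 0.616 over the 14 arrays and of 0.0805 after the means were taken off. For Muc1 with Muc13, which lay on opposite sides, r was -0.909 over the arrays and stayed at -0.737. Over the 7 differences of the pairs r was 0.776 for Muc4 with Muc15, 0.663 for Muc13 with Muc16 and -0.670 for Muc1 with Muc13. These values describe 14 arrays in 7 pairs, share each pool's dissection and sort, and are not tested.

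Among the 11425 genes above background, the gene whose level followed Muc1 most closely over the 14 arrays was Met, the receptor of hepatocyte growth factor, with r = 0.963, and r = 0.757 after the population means were taken off. It was followed by 4632427E13Rik (r = 0.951) and by Ceacam1, which encodes a cell adhesion molecule of the epithelial surface (r = 0.944). Closest to Muc15 were Mtss2 (r = 0.987), the aminopeptidase gene Anpep (r = 0.983) and Fcgbp (r = 0.98), and after the means were taken off r was 0.926 for Mtss2. Closest to Muc4 were the cytokine gene Lif (r = 0.951), the heme exporter gene Flvcr1 (r = 0.948) and the carbonic anhydrase gene Car2 (r = 0.94). Closest to Muc13 were Mboat1 (r = 0.956), the collagen lysyl hydroxylase gene Plod1 (r = 0.954) and the cationic amino acid transporter gene Slc7a2 (r = 0.951). Closest to Muc16 were Anapc13 (r = 0.93), Mrpl17 (r = 0.887) and Gstk1 (r = 0.883). These are the 3 highest of many correlations for each gene and are given as a description.

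**Figure D3:**
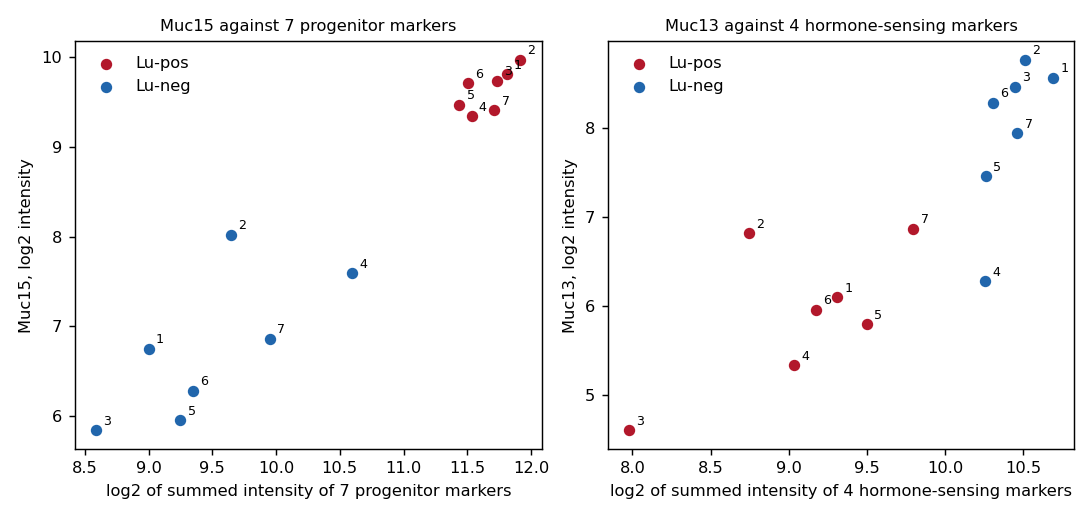
Log2 intensity of Muc15 against the log2 of the summed intensity of 7 progenitor markers (left), and of Muc13 against that of 4 hormone-sensing markers (right), with a point for each of the 14 arrays, colored by population and numbered by pool. The Lu-pos arrays lie at 9.34 or more for Muc15 and at 6.87 or less for Muc13, and within Lu-neg the arrays of pools 2 and 4 stand highest for Muc15.

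Within a population, the level of each mucin was set against the markers of the other population, in 5 relations over 7 arrays each. The relations were chosen after values were seen, so their p-values are given as a description. In Lu-neg arrays, Muc15 and the summed progenitor markers had a Pearson r = 0.7 (exact two-sided permutation p = 0.0778, adjusted p = 0.27) and a Spearman rho = 0.786 (exact permutation p = 0.048, adjusted p = 0.24), and r was 0.443 without pools 3 and 4, the 2 farthest from the median marker level. Muc1 gave r = 0.577 and rho = 0.286 (exact permutation p = 0.173 and 0.556), with r = -0.338 without the same 2 pools, and Muc4 gave r = 0.118 and rho = 0.0721 (exact permutation p = 0.803 and 0.883). In Lu-pos arrays, Muc13 and the summed hormone-sensing markers had r = 0.654 and rho = 0.536 (exact permutation p = 0.108 and 0.236), with r = -0.504 without pools 3 and 7, and Muc16 had r = 0.298 and rho = 0 (exact permutation p = 0.53 and 1). The lowest adjusted p over the 5 relations was 0.24, so that none passed after adjustment, and sets of 3 and 4 pools are too small to give the relations within them. In the Lu-pos array of pool 3 the hormone-sensing markers were at their lowest, 7.98, as were Muc13, 4.61, and Muc16, 2.81. In that of pool 7 the markers were at their highest, 9.80, as was Muc13, 6.87, while Muc16, at 3.61, lay under background.

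Other mucins and mucin-like proteins mostly lay under background. Of 23 such genes listed, 17 were measured and 6 lay above background. Of the 17, 2 fell in Lu-pos cells and 15 were not called, where 7.19% of all genes were called lower. The median log2 fold change was -0.05 against -0.02 over all genes. Over the 6 above background it was -0.24, against -0.05 over all genes above background. Podxl, which encodes the sialylated membrane protein podocalyxin, was at 6.43 ± 0.61 in Lu-pos and 7.88 ± 0.23 in Lu-neg cells (log2 fold change -1.46 ± 0.22 SE, adjusted p = 0.00359). Cd164, which encodes the small sialomucin endolyn, fell by 0.53 on the log2 scale (SE 0.12, adjusted p = 0.0196), and its adjusted p was 0.0541 without pair 2 and 0.0582 with housekeeping scaling. The gel-forming mucin genes Muc2, Muc5ac, Muc6 and Muc19 and the membrane mucin genes Muc3 and Muc3a all lay under background, at most at 3.70 in Lu-pos and 3.56 in Lu-neg cells.

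Among the enzymes that build the sugar chains of mucins, 3 of 19 of the first step and 8 of 18 of the later steps were called, beside 11.5% of all genes. The first step, the transfer of N-acetylgalactosamine to serine or threonine, is made by the Galnt enzymes. Of the 19 measured genes of this family, 10 lay above background, 1 rose and 2 fell in Lu-pos cells. The median log2 fold change was -0.06, and 0.035 over the 10 above background. Galnt11 fell by 0.66 on the log2 scale (SE 0.12, adjusted p = 0.00816). It was dim, at 4.07 in Lu-pos and 4.73 in Lu-neg cells, both under the 99th percentile of the receptor genes, 5.09. Galnt7 (-0.65, adjusted p = 0.0413) and Galnt15 (0.49, adjusted p = 0.0478) were called by a narrow margin. Galnt15 was dim too, at 4.73 in Lu-pos and 4.24 in Lu-neg cells. Galnt7 lost its call on omission of any single one of pairs 1, 2, 3, 4 or 6 (adjusted p between 0.0505 and 0.105), and Galnt15 on omission of any single one of pairs 1, 2, 3, 5, 6 or 7 (adjusted p between 0.0599 and 0.114). In the unpaired fit the adjusted p was 0.11 for Galnt7 and 0.138 for Galnt15. Galnt7 was also lost with housekeeping (0.0545) and 75th percentile (0.0543) scaling, and Galnt15 with repeated quantile normalization (0.0516) and a robust variance model (0.0612). Galnt3 and Galnt1, both well above background, were at 8.42 and 8.39 in Lu-pos and at 8.42 and 8.78 in Lu-neg cells and were not called.

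Of 18 genes of the later steps, 10 lay above background, 7 fell and 1 rose, where 7.19% of all genes fell and 4.35% rose. The median log2 fold change was -0.12. Over the 10 genes above background it was -0.84, against -0.05 over all genes above background. Of all genes above background 13.5% fell and 8.14% rose. All 7 that fell were lower in 7 of 7 pairs. C1galt1, the enzyme that adds galactose to make the core 1 chain, was at 6.34 ± 0.33 in Lu-pos and 7.11 ± 0.31 in Lu-neg cells (log2 fold change -0.78 ± 0.13 SE, adjusted p = 0.00593). C1galt1c1, which encodes its chaperone Cosmc, fell by 0.60 (SE 0.12, adjusted p = 0.0131). Gcnt4, of the family that branches the core, fell by 1.33 (SE 0.27), St3gal1 and St3gal4, which cap chains with sialic acid, fell by 1.17 (SE 0.16) and 0.94 (SE 0.14), and B3gnt7 and B3gnt3, which extend chains, fell by 1.07 (SE 0.23) and 0.90 (SE 0.15), with adjusted p-values between 0.00192 and 0.0168. B3gnt7 and B3gnt3 were dim, at 3.91 and 4.16 in Lu-pos and at 4.98 and 5.06 in Lu-neg cells, all under the 99th percentile of the receptor genes, 5.09. B3gnt7 had a log2 fold change of -0.54 (adjusted p = 0.0544) over the mean of its probe sets, B3gnt3 lost its call in the unpaired fit (adjusted p = 0.373), and C1galt1c1 lost it with housekeeping scaling (adjusted p = 0.0587). St6galnac4, called higher at 0.36, lay under background, and it missed the threshold (adjusted p 0.059 to 0.0867) on omission of any single one of pairs 1, 2, 3, 4, 6 or 7, and also in the unpaired fit (0.0891). In pools 1 to 3 alone 3 of the 18 genes were called, and in pools 4 to 7 alone 3 were.

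**Figure D4:**
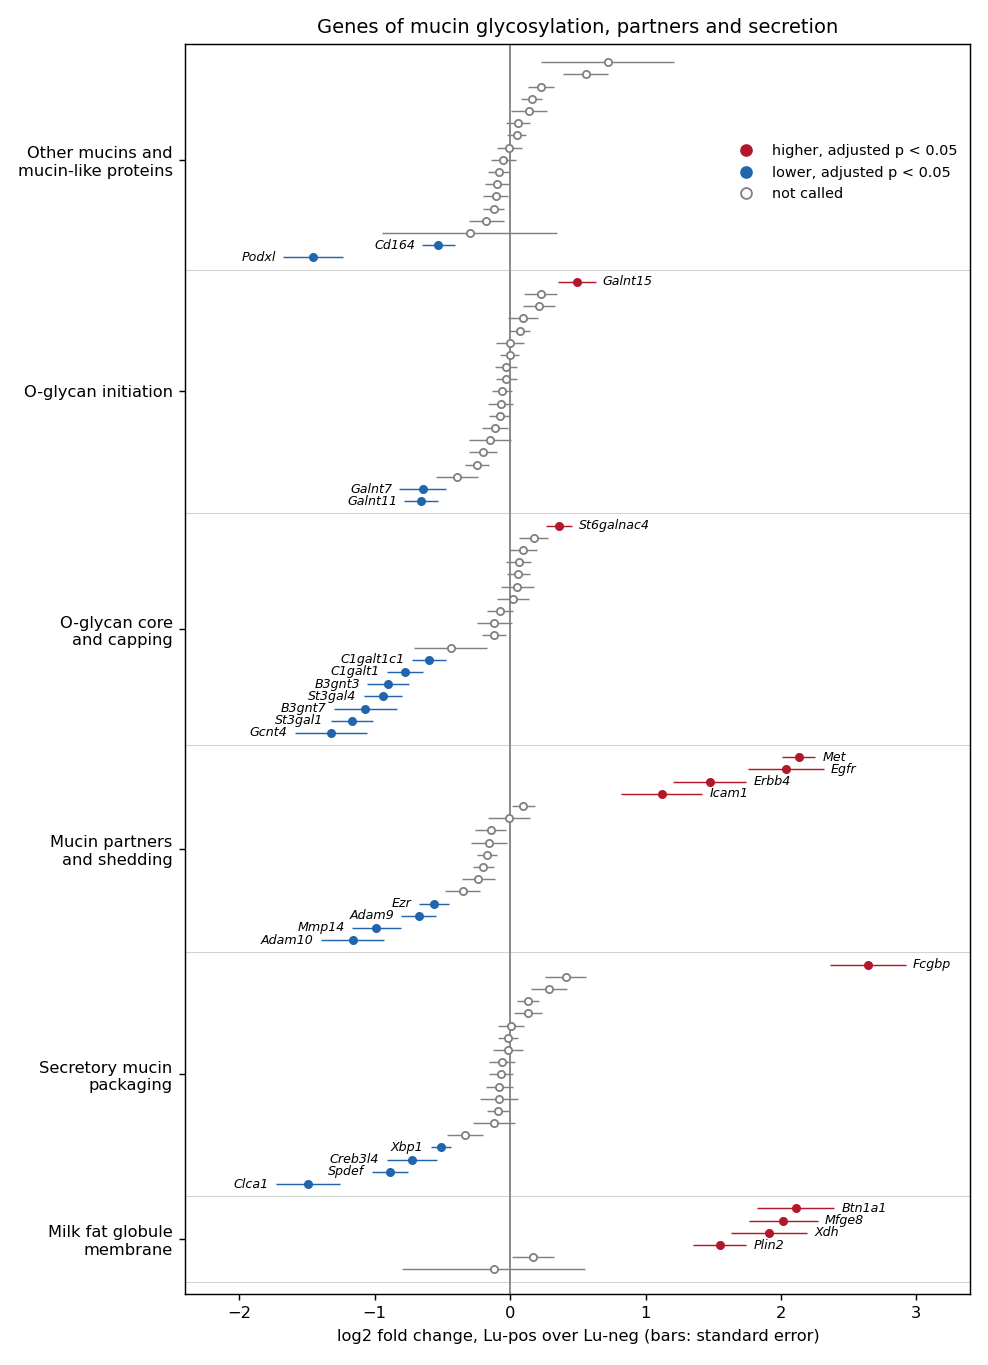
Log2 fold change, Lu-pos over Lu-neg (x axis), of each measured gene of 6 lists (grouped on the y axis), with bars for the standard error, filled points for genes called by limma and open points for the others. The 7 falls among the later O-glycan enzymes lie between -1.33 and -0.60, and the 4 rises among the milk fat globule genes lie between 1.55 and 2.11.

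Genes of proteins that bind or cut membrane mucins moved in both directions. Of 16 measured, 4 rose and 4 fell in Lu-pos cells, beside 4.35% and 7.19% of all genes, and the median log2 fold change was -0.17. Receptor genes rose, with Met, to which MUC20 binds in human cells, at 8.20 ± 0.17 in Lu-pos and 6.07 ± 0.38 in Lu-neg cells (log2 fold change 2.13 ± 0.12 SE), followed by Egfr (2.03 ± 0.28 SE) and Erbb4 (1.47 ± 0.27 SE), with adjusted p-values of 6.4e-05, 0.00219 and 0.00766. Icam1, a ligand of MUC1 in human cells and the molecule of the sort, had a log2 fold change of 1.12 (adjusted p = 0.0403), and it missed the threshold (adjusted p 0.0548 to 0.102) on omission of any single one of pairs 1, 4, 5, 6 or 7. Erbb2 and Erbb3, the receptors linked with MUC4, were at 7.32 and 8.08 in Lu-pos and at 7.67 and 8.32 in Lu-neg cells and were not called. The protease genes Adam10 (-1.16 ± 0.23 SE), Mmp14 (-0.99 ± 0.18 SE) and Adam9 (-0.67 ± 0.13 SE) fell, with adjusted p-values of 0.0117, 0.00749 and 0.00986, and so did Ezr, which encodes the membrane linker ezrin (-0.56 ± 0.11 SE, adjusted p = 0.0117). Adam17, a sheddase of MUC1, was not called (-0.16, adjusted p = 0.565), and Msln, which encodes the MUC16 ligand mesothelin, lay under background.

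Of 19 measured genes of mucus-secreting cells, 7 lay above background, 1 rose and 4 fell, beside 4.35% and 7.19% of all genes. The median log2 fold change was -0.07. Over the 7 genes above background it was -0.51, against -0.05 over all genes above background. Fcgbp, which encodes a large mucus-associated protein, was at 10.4 ± 0.34 in Lu-pos and 7.78 ± 0.82 in Lu-neg cells (log2 fold change 2.64 ± 0.28 SE, adjusted p = 0.000829). The falls were those of Clca1, which encodes a mucus protease (-1.49 ± 0.23 SE), of Spdef, a transcription factor of goblet cells (-0.89 ± 0.13 SE), of Creb3l4 (-0.73 ± 0.19 SE) and of Xbp1 (-0.51 ± 0.07 SE), both factors of secretory cells. Creb3l4 missed the threshold (adjusted p 0.0505 to 0.0865) on omission of any single one of pairs 1, 2, 4 or 5, and also with housekeeping scaling (0.057). Agr2, the chaperone of gel-forming mucins, and the trefoil factor genes Tff1 and Tff2 lay under background.

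Of 6 genes of the milk fat globule membrane, where MUC1 and MUC15 are found, 4 rose in Lu-pos cells, as did 4.35% of all genes, and 2 were not called, with a median log2 fold change of 1.73. Btn1a1, which encodes butyrophilin, was at 7.47 ± 0.55 in Lu-pos and 5.36 ± 0.72 in Lu-neg cells (log2 fold change 2.11 ± 0.28 SE, adjusted p = 0.00193). Mfge8 (2.02 ± 0.25 SE), Xdh, which encodes xanthine oxidoreductase (1.91 ± 0.28 SE), and the lipid droplet gene Plin2 (1.55 ± 0.20 SE) rose as well, each in 7 of 7 pairs, with adjusted p-values between 0.00146 and 0.00282. In pools 4 to 7 alone 1 of the 6 was called, while 4 had an unadjusted p under 0.05. Cd36 and Folr1 were at 5.40 and 4.76 in Lu-pos and at 5.52 and 4.59 in Lu-neg cells.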

How the data were processed

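Lu-pos and Lu-neg cells, 7 samples each, were mapped to population and pool from their titles. The authors amplified the RNA, hybridised it to Affymetrix Mouse Gene arrays and deposited a log2 intensity for every probe set. RMA and Affymetrix Expression Console are the tools in the submitters' processing notes, without versions. The arrays have no read depth, and their number limits the precision. No 2 arrays held identical values, and the array medians lay between 3.46 and 3.58.

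Of 41345 probe sets, 23521 had a single gene symbol, 1820 had several and 16004 had none in the annotation used. Of the 23521, 23328 matched a gene of RefSeq GRCm38.p6. The brightest probe set stood for each of 22180 genes. All genes were fitted with limma 3.58.1 (R 4.3.3) and the pair as a block, with Benjamini-Hochberg adjustment, and called at an adjusted p under 0.05. The pairs rest on the series' design and the study's paired comparison. Deviations from the population means correlated within each pair, between 0.166 and 0.256. Correlations between arrays of different pools are not given beside them, so these values do not test the pairing. The code of the fit and of the pool test was tried on simulated arrays. These were drawn with normal noise at the fitted variances, so they do not test the model's assumptions on the real arrays.

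The mucin genes and all lists were chosen with earlier results of these data known. Lists were written from textbook knowledge. Named by rule were all mucins of the list, up to 4 rises and 4 falls per list, the 3 nearest patterns and direct neighbors. Genes named as not called or under background, and the B3gnt3, C1galt1 and C1galt1c1 genes beyond the rule, were chosen after their values were seen. So were the test between pools and the relations with markers. Alternatives were no pairing, other scalings, the average over probe sets, dim genes left out, another variance model, the methods' t-test, each pair left out, and pools 1 to 3 or 4 to 7 alone. Muc20 is not analysed here, and no protein sequences were used.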

Additional observations from a re-analysis of the deposited data

Results flagged for a closer look

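The difference of Muc16 between Lu-pos and Lu-neg cells in pool 3, -3.76, stood apart from those of the other 6 pools. Its gap to the nearest of them was 1.37 log2 units, or 0.596 of the whole range of 2.30. Of 18 groups of 7 values examined, the levels of 6 mucins in each population and their differences, 1 was singled out, and chance singles out about 1 in 20. The Lu-pos level of Muc16 in this pool, 2.81, lay under background, and without pool 3 the mean difference was -1.70.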

How the results depend on the processing

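The differences of the 6 measured mucins kept their sign under all 14 alternatives tried and moved by less than the SD of the pairs. Dropping the pairing and averaging over probe sets could not change them, since the pairs are complete and each mucin had 1 probe set. All 14 alternatives rest on the contrast from which the genes were chosen, so they are no independent evidence. With each pair left out in turn the difference lay between 1.49 and 1.70 for Muc1, 2.71 and 3.07 for Muc15, 2.52 and 2.97 for Muc4, -2.22 and -1.73 for Muc13, -2.08 and -1.70 for Muc16, and -0.18 and -0.10 for Muc5b. Of all genes, 2559 were called, 1910 to 2207 with a pair left out, 948 in pools 1 to 3 alone, 811 in pools 4 to 7 alone, and 824 by the methods' t-test at 1.5-fold after Benjamini-Hochberg. Without the pairing (no replicate block) 2038 genes were called, and 1 O-glycan initiation gene in place of 3, and no other list count changed by more than 1.5 times. The cause was not tested. With the arrays shifted to 6 housekeeping genes the median of all genes rose by 0.12, and 61.2% of calls were higher, against 37.7% as deposited. Of these 6 genes 1, Hprt, was itself called lower in Lu-pos (log2 fold change -0.60, limma adjusted p = 0.00212). This scaling, and the calls lost with it, therefore rest in part on a gene that differed between the populations.

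In pools 1 to 3 alone the calls were 1 of the other mucins, 3 of the later O-glycan genes, 4 of the mucin partners and 3 of the packaging genes. In pools 4 to 7 alone limma called 1 of the other mucins, 0 of O-glycan initiation (1 higher and 2 lower at an unadjusted p under 0.05), 3 of the later O-glycan genes, 2 of the packaging genes and 1 of the milk fat globule genes. The methods' t-test at 1.5-fold gave 1 of the other mucins without correction, and after Benjamini-Hochberg 1 of them, 1 of O-glycan initiation, 4 of the later O-glycan genes, 2 partners and 3 packaging genes. With a pair left out, 1 to 3 of the other mucins and 1 to 3 O-glycan initiation genes were called. The pool test of Muc16 gave an adjusted p of 0.0249 to 0.386 over its alternatives. Signal over background limits Muc5b, Muc4 in Lu-neg and Muc16 in Lu-pos cells.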
